A study of Homo sapiens with 6 samples.

Results

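Messenger RNA of the respiratory chain was followed in SDR42E1 knockout and wild-type control HaCaT cells, across the subunits encoded in the nucleus and the subunits encoded in mitochondrial DNA. Members were the rows of the count table whose names carry the symbol stems of the subunits of complexes I to V, with cytochrome c, and whose counts summed to at least 15 over the 6 libraries. The name stems took in 110 rows and 97 of them reached that sum, of 46287 rows in the table. Of the 97 members, 84 are nuclear genes and 13 are mitochondrial genes, and 96 could be tested, the exception being NDUFA4L2. The nuclear members include 4 that are not subunits by themselves, namely the carrier CYCS, the ATP synthase inhibitor ATP5IF1 and the readthrough loci NDUFC2-KCTD14 and ATP5MF-PTCD1.

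HaCaT is an immortalized keratinocyte line that arose spontaneously from human epidermis. The knockout group comprised 3 libraries of HaCaT cells made homozygous for a loss of SDR42E1, a short-chain dehydrogenase/reductase gene linked to vitamin D, by CRISPR/Cas9, and the reference was 3 libraries of wild-type HaCaT cells. All cells grew in the same high-glucose medium with serum, and stranded total-RNA libraries were sequenced. The replicates are labelled biological, but whether they are separate edited clones or separate cultures is not stated. The p-values below set each difference between the groups against the spread between these libraries. If the libraries are cultures of a single clone, the p-values cannot separate the knockout from differences between clones.

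The respiratory chain passes electrons from NADH, through complex I, and from succinate, through complex II, to ubiquinone, then through complex III and cytochrome c to complex IV, where oxygen is reduced. Complexes I, III and IV pump protons across the inner mitochondrial membrane, and complex V, the ATP synthase, uses the gradient to make ATP. All complexes but complex II are assembled from subunits of both genomes. The mitochondrial genes are transcribed from few promoters as long RNAs that are then cut into single messengers, so their levels are not independent of each other, whereas each nuclear subunit gene has a promoter of its own.

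Many promoters of nuclear subunit genes carry sites for the factor NRF1, for ETS-family factors such as GABPA, or for factors that bind the cyclic AMP response element (CRE). The promoters of 4 nuclear members that the results turn on are printed here: CYCS, with the largest increase among well expressed members, COX4I1, with the largest decrease among nuclear members, and ATP5MC1 and ATP5MC2, which encode the same protein and were both lower. Each runs 5′ to 3′ on the strand of the gene, from 250 bases before to 50 bases after the start, and was taken from RefSeq on GRCh38.p14. Capitals mark the match to a searched motif. CYCS lies on the minus strand at chr7:25125211-25125510, COX4I1 on the plus strand at chr16:85799445-85799744, ATP5MC1 on the plus strand at chr17:48892537-48892836 and ATP5MC2 on the minus strand at chr12:53676034-53676333.
CYCS: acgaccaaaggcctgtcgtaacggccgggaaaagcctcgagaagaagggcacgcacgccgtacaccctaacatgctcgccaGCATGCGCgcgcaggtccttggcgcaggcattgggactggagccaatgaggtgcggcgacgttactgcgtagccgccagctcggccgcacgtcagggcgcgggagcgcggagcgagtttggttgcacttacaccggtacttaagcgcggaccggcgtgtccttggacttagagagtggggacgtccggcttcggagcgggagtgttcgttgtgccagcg
COX4I1: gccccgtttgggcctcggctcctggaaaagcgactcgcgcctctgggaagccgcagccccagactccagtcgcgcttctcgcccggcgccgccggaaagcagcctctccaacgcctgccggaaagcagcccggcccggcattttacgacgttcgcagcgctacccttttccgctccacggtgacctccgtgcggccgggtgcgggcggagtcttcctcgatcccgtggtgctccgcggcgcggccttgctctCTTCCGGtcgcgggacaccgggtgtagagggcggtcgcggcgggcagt
ATP5MC1: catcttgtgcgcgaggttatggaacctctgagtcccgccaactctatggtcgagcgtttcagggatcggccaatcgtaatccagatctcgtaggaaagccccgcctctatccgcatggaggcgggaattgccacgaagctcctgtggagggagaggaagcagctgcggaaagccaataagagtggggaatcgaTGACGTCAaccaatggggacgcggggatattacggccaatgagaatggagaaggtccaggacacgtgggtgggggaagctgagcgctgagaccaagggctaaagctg
ATP5MC2: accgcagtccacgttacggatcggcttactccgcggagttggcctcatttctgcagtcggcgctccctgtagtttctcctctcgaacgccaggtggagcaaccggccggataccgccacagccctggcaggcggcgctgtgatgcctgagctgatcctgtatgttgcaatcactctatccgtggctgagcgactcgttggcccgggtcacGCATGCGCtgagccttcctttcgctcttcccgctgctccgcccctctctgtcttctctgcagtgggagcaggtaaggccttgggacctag
The capitals are the NRF1 core in CYCS, 169 bases before the start, and in ATP5MC2, 40 bases before the start, the CRE in ATP5MC1, 57 bases before the start, and the ETS core, read on the other strand, in COX4I1, starting 2 bases past the start.

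Promoters were found in the RefSeq table for 68 of the 84 nuclear members and searched on both strands for exact matches, each motif counted once per promoter and without regard to overlap with the others. The NRF1 core, GCATGCGC or its reverse complement GCGCATGC, was present in 14 of the 68 members' promoters (20.6%) and in 3.27% of all 27305 promoters of the same length. The ETS core, CCGGAAG or CTTCCGG, was present in 20 members' promoters (29.4%), against 10.7% of all promoters. The CRE, TGACGTCA, was present in 5 members' promoters (7.35%), against 1.98% of all. All promoters here means the first start site listed for each named gene, whether or not the gene was expressed in these cells. A comparison with expressed genes alone was not made. By response, the NRF1 core stood in 3 of 9 promoters of members that rose in the knockout, in 2 of 13 of those that fell and in 9 of 46 of those that did not pass the test. The ETS core stood in 2, 2 and 16 of these promoters, in the same order, so members on either side of the threshold held both motifs. A match describes the letters in this window and is not a measured binding site.

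Library totals ran from 11504473 to 16928201 counts. SDR42E1 itself was counted 268, 265 and 237 times in the knockout libraries, against 650, 822 and 601 times in the control libraries, a log2 fold change of −1.16 ± 0.08 (SE; adjusted p = 2.69e-14). Its messenger was thus lower but present in the knockout, and the 40 tested genes nearest to it on chromosome 16 lay at a median of −0.59 on the same scale. Of 10 keratinocyte markers all were detected, with summed levels of 7303.2 to 7682.9 CPM (counts scaled to library size) in the knockout and 7479.8 to 8005.6 CPM in the control. Single markers moved both ways on the log2 scale. KRT5 (−0.66) and PKP1 (−0.44) passed the test as lower. KRT17 (0.66), ITGB4 (0.76), COL17A1 (0.41), SFN (0.45) and TP63 (0.25) passed as higher, and KRT14, DSG3 and DSC3 did not pass. Markers of fibroblasts, 7 genes of which 2 were at 0, summed to between 1.12 and 2.13 CPM in the knockout and between 4.3 and 6.19 CPM in the control. The sums were lower in every knockout library for endothelial markers as well, at 1.92 to 2.66 CPM in the knockout and 3.65 to 4.28 CPM in the control, and for melanocyte markers, at 1.57 to 2.89 CPM in the knockout and 3.18 to 3.57 CPM in the control, while those of leukocytes overlapped, at 0.262 to 1.73 CPM in the knockout and 0.812 to 1.45 CPM in the control. COL3A1 of fibroblasts and VWF of endothelium passed the test as lower, and the part of such cells in the results was not tested. Of 12293 genes tested, 6197 passed an adjusted p of 0.05, which is 50.4%: 24.6% were higher and 25.8% lower in the knockout, and the median log2 fold change over all genes was −0.00.

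The nuclear and the mitochondrial members did not show the same pattern. Of 83 nuclear members tested, 12 rose and 16 fell in the knockout while 55 did not pass the test, and their median log2 fold change was −0.02. These shares, 14.5% higher and 19.3% lower, stand beside 24.6% and 25.8% of all genes tested. Of the 13 mitochondrial members none rose, 7 fell and 6 did not pass, and all 13 had a log2 fold change below 0, with a median of −0.21. The share that fell, 53.8%, stands beside 25.8% of all genes. Among the 6378 well expressed genes, with a log2 CPM averaging 5 or more, 34.1% were higher and 24.0% lower, with a median of 0.05. Knockout libraries were all below control libraries for 6 mitochondrial and 18 nuclear members and all above them for 12 nuclear members, where 29.0% and 27.5% of all tested genes were so separated.

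Most nuclear differences were small. An absolute log2 fold change under 0.25 was seen in 71 of the 83 nuclear members (85.5%), against 52.8% of all tested genes. It reached 0.5 in 5 nuclear members, among them COX4I1 and ATP5MC1 on the lower side and CYCS and COX6B2 on the higher side, and in the mitochondrial MT-ATP8. Summed over the nuclear members the level was 12420.2, 12215.6 and 11599.0 CPM in the knockout libraries, against 12521.9, 12190.2 and 12390.3 CPM in the control libraries, and these ranges overlapped. The mitochondrial sum was 3673.0, 3512.9 and 3613.4 CPM in the knockout libraries, against 3841.0, 4516.2 and 4102.4 CPM in the control libraries, so every knockout library was below every control library. As bulk RNA was measured, fewer cells of a kind and less RNA per cell cannot be told apart.

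**Figure D1:**
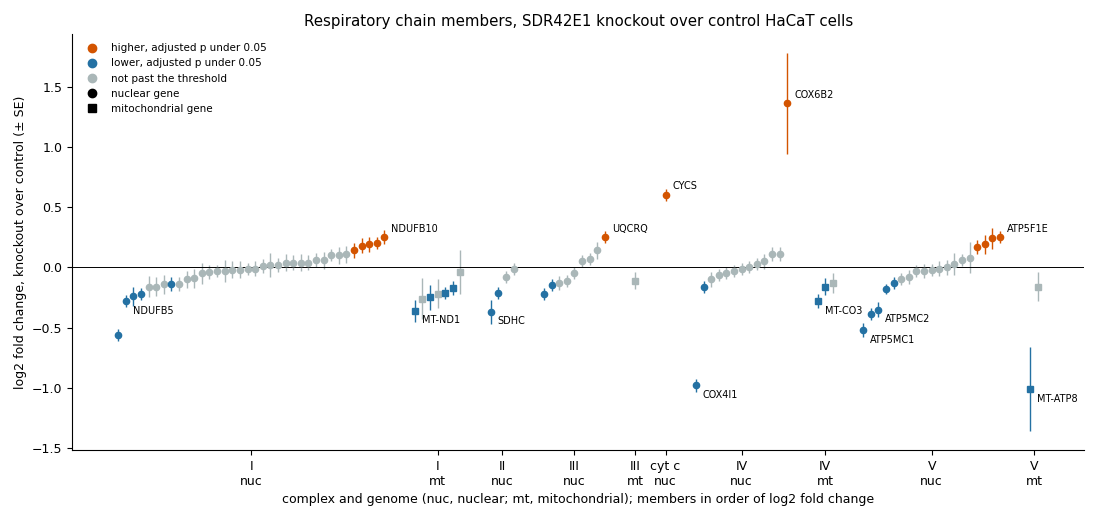
Log2 fold change of knockout over control (y axis, bars ± SE) for each tested member, grouped by complex and genome on the x axis and ordered by value. Circles are nuclear and squares mitochondrial genes, coloured by call, and the readthrough locus NDUFC2-KCTD14, with an SE of 1.07, is left out. Most nuclear members sit near 0, all mitochondrial members sit below it, and COX4I1 (−0.98) and CYCS (0.60) stand far out.

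Complex I takes electrons from NADH and carries 7 mitochondrial subunits, all of which had negative log2 fold changes in the knockout. MT-ND1 was at 25.6, 32.1 and 25.0 CPM in the knockout libraries, against 35.0, 37.5 and 34.2 CPM in the control libraries. MT-ND5 was at 91.3, 97.1 and 93.1 CPM in the knockout libraries, against 108.9, 106.9 and 109.2 CPM in the control libraries. In both genes all knockout libraries were below all control libraries, and the log2 fold change was −0.36 ± 0.09 for MT-ND1 (adjusted p = 0.0011) and −0.21 ± 0.05 for MT-ND5 (adjusted p = 0.00197). MT-ND4 was at 86.6, 88.9 and 86.4 CPM in the knockout libraries, against 91.8, 103.7 and 98.1 CPM in the control libraries, again without overlap (−0.17 ± 0.06, adjusted p = 0.0171). MT-ND2 was at 20.8, 26.0 and 24.3 CPM in the knockout libraries, against 25.8, 28.4 and 31.0 CPM in the control libraries, with knockout 2 just above control 1 (−0.25 ± 0.10, adjusted p = 0.0279).

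These 4 membrane subunits fell, and the other 3 did not pass the test. MT-ND4L was at 11.2, 11.6 and 11.7 CPM in the knockout libraries, against 12.7, 13.7 and 13.7 CPM in the control libraries, without overlap but with an adjusted p of 0.141. MT-ND3 was at 7.52, 5.32 and 7.08 CPM in the knockout libraries, against 5.4, 7.12 and 7.96 CPM in the control libraries, and the groups overlapped widely; without knockout 2 its log2 fold change was 0.10, above 0. MT-ND6, the subunit gene on the opposite strand to the other 12, was at 6.83, 11.2 and 6.82 CPM in the knockout libraries, against 9.43, 11.2 and 9.42 CPM in the control libraries. The second library of each group was thus the high one for MT-ND6, and without knockout 2 its log2 fold change was −0.55 with an adjusted p of 0.00925.

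In complex III, cytochrome b is the mitochondrial subunit and did not pass the test. MT-CYB was at 53.3, 52.3 and 54.2 CPM in the knockout libraries, against 50.8, 60.3 and 61.9 CPM in the control libraries, with control 1 below the knockout range. In complex IV, MT-CO1 encodes the subunit that reduces oxygen. It was at 1487.0, 1440.4 and 1633.7 CPM in the knockout libraries, against 1467.7, 1805.5 and 1707.6 CPM in the control libraries, overlapping because control 1 was low (−0.13 ± 0.08, adjusted p = 0.193). MT-CO2, which receives electrons from cytochrome c, was at 93.1, 92.5 and 91.5 CPM in the knockout libraries, against 93.0, 116.2 and 99.5 CPM in the control libraries. Control 2 was the high library for MT-CO2, and the log2 fold change was −0.16 ± 0.07 (adjusted p = 0.0429). MT-CO3 was at 1767.4, 1633.6 and 1554.3 CPM in the knockout libraries, against 1919.9, 2196.6 and 1899.4 CPM in the control libraries. It fell without overlap, by 0.28 on the log2 scale (SE 0.06, adjusted p = 0.000233).

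In complex V, MT-ATP6 forms part of the proton channel and was at 21.4, 20.5 and 24.2 CPM in the knockout libraries, against 18.9, 26.8 and 28.0 CPM in the control libraries, an overlapping difference (adjusted p = 0.303). MT-ATP8 had only 11, 16 and 11 counts in the knockout libraries, against 23, 39 and 30 counts in the control libraries. It had the largest fitted decrease of the 13, −1.01 ± 0.35 (adjusted p = 0.016), and the widest error. The reading frames of MT-ATP8 and MT-ATP6, and of MT-ND4L and MT-ND4, overlap on the same strand, so reads from the shared bases could have been assigned to either or dropped.

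Read per kilobase of messenger, MT-CO3 and MT-CO1 stood far above the other mitochondrial members in both groups. MT-CO3 was at 2106.9 CPM per kilobase in the knockout and 2557.8 in the control, and MT-CO1 at 986.0 in the knockout and 1076.7 in the control. MT-CO2, whose gene lies between them, was at 135.0 CPM per kilobase in the knockout and 150.5 in the control, and the remaining 10 lay between 5.04 and 63.3 in the knockout and between 10.2 and 71.0 in the control. MT-CO1 and MT-CO3 together held 88.1% ± 0.559 of the mitochondrial members' counts in the knockout and 88.2% ± 0.349 in the control (SD, n = 3 each). Summing the other 11 alone gave 427.6 ± 10.4 CPM in the knockout and 487.6 ± 31.1 CPM in the control. All mitochondrial members held 0.353% ± 0.00836 of all counts in the knockout and 0.423% ± 0.0364 in the control. On the same measure the nuclear members held 1.19% ± 0.029 in the knockout and 1.26% ± 0.012 in the control, and were also lower in every knockout library. That measure uses unscaled totals, whereas the nuclear sums in scaled CPM overlapped. The 24 rows for mitochondrial ribosomal and transfer RNA were all at 0. The 11 rows found for nuclear copies of mitochondrial genes all carry MTRNR2L names, after the ribosomal RNA gene MT-RNR2, and 7 of them were at 0. No nuclear copy of a subunit gene was among these rows. How reads that match both genomes were counted is not said in any source used here.

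The number of mitochondrial members that fell depended on single libraries. It was 3 without control 2, 3 without knockout 1, 4 without knockout 3, 5 without control 3, 7 without knockout 2 and 10 without control 1. With DESeq2 it was 3, MT-ND2, MT-ND4, MT-CO2 and MT-ATP8 no longer passing. MT-ND1 and MT-ND5 passed under every setting tried. MT-CO3 lost its call only without knockout 3 (adjusted p = 0.055), MT-ND4 most clearly without control 2 (0.163) and MT-ND2 most clearly without knockout 1 (0.196). For MT-CO2 the adjusted p was 0.515 without control 2, and for MT-ATP8 it was 0.0752 without control 3. Without control 1, MT-CO1, MT-CYB and MT-ATP6 passed as well, with adjusted p-values of 0.00159, 0.0272 and 0.0126.

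**Figure D2:**
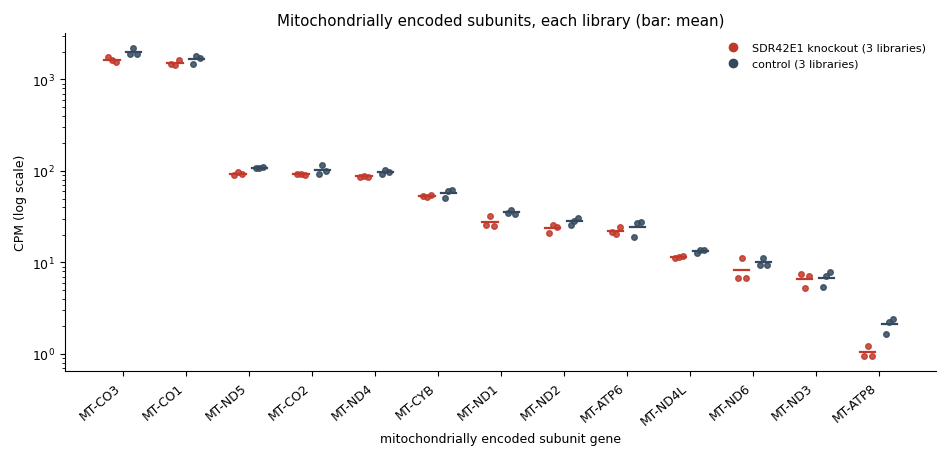
Level of each of the 13 mitochondrially encoded subunits in CPM (y axis, log scale) in 3 knockout libraries and 3 control libraries, with bars at the group means, in falling order along the x axis. MT-CO3 and MT-CO1 lie above 1000 CPM and MT-ATP8 between 0.951 and 2.44 CPM, and for 6 of the 13 genes all knockout points lie below all control points.

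Among 37 nuclear complex I members, 5 rose (13.5%), 5 fell (13.5%) and 27 did not pass, with a median log2 fold change of −0.01. Of all genes tested, 24.6% were higher and 25.8% lower. NDUFS1, the largest iron-sulfur subunit of the catalytic core, was at 227.8, 213.9 and 199.0 CPM in the knockout libraries, against 239.6, 254.1 and 254.1 CPM in the control libraries (−0.22 ± 0.05, adjusted p = 0.000365). All knockout libraries were below all control libraries for NDUFS1. NDUFV2, a smaller iron-sulfur subunit of the core, was higher by 0.18 ± 0.06 (adjusted p = 0.0186).

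The 29 accessory subunits of complex I among the members, which surround the core, moved little and in both directions: 4 rose (13.8%), 3 fell (10.3%) and 22 did not pass. The acyl carrier subunit NDUFAB1 falls outside the name stems and was counted in a companion list (0.10, adjusted p = 0.206). NDUFB5 was at 113.6, 111.0 and 113.9 CPM in the knockout libraries, against 134.8, 137.9 and 138.7 CPM in the control libraries (−0.28 ± 0.05, adjusted p = 1.73e-05). NDUFB10 was at 109.3, 105.9 and 102.2 CPM in the knockout libraries, against 88.7, 94.1 and 83.5 CPM in the control libraries (0.25 ± 0.06, adjusted p = 0.000442). Both belong to the membrane arm of the complex, and they moved in opposite directions without overlap. NDUFA6 also rose under every setting tried (0.20 ± 0.05, adjusted p = 0.00235). Calls of NDUFC2 (0.19), NDUFS5 (0.14), NDUFB1 (−0.24) and NDUFB8 (−0.14), like that of NDUFV2, were lost when single libraries were left out, at adjusted p-values of up to 0.111 for NDUFC2 without control 3, 0.112 for NDUFS5 without knockout 2, 0.0667 for NDUFB1 without control 3, 0.284 for NDUFB8 without knockout 3 and 0.135 for NDUFV2 without knockout 2. NDUFB8 lost its call under 10 of 14 settings, limma-voom (0.0567), DESeq2 (0.144) and RLE scaling (0.0573) among them, and NDUFS5 also with upper-quartile scaling (0.0848). The readthrough locus NDUFC2-KCTD14 had 0 counts in control 1 and 65 and 53 in the other control libraries, and its log2 fold change has an SE of 1.07.

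Complex II oxidizes succinate in the citric acid cycle and has nuclear subunits only. Of its 4 members, none rose, 2 fell and 2 did not pass, with a median log2 fold change of −0.15. Across all genes tested the shares were 24.6% higher and 25.8% lower, and 4 members are too few to compare with them. SDHA, the flavoprotein, was at 141.1, 148.8 and 139.8 CPM in the knockout libraries, against 160.9, 161.2 and 174.8 CPM in the control libraries (−0.21 ± 0.05, adjusted p = 0.000916). SDHC, a membrane anchor, was at 24.0, 19.8 and 22.9 CPM in the knockout libraries, against 25.5, 32.3 and 27.9 CPM in the control libraries (−0.37 ± 0.10, adjusted p = 0.002). In both genes all knockout libraries lay below all control libraries, and around SDHC 33 of the 40 nearest tested genes were below 0 with a median of −0.30. SDHD, the other anchor, was at 308.6, 282.5 and 290.1 CPM in the knockout libraries, against 311.4, 297.8 and 325.6 CPM in the control libraries, and overlapped (adjusted p = 0.149). SDHB, the iron-sulfur subunit, was at −0.01 ± 0.05 on the log2 fold change scale (adjusted p = 0.934).

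Complex III hands electrons from ubiquinol to cytochrome c. Of its 9 nuclear members 1 rose (11.1%), 2 fell (22.2%) and 6 did not pass, with a median of −0.05. The shares of all genes tested were 24.6% higher and 25.8% lower. UQCRQ, a small subunit, was at 140.8, 146.0 and 140.5 CPM in the knockout libraries, against 121.0, 113.9 and 124.6 CPM in the control libraries (0.25 ± 0.05, adjusted p = 0.000118). UQCRC1, a core protein, was at 142.6, 146.9 and 131.5 CPM in the knockout libraries, against 166.0, 164.0 and 161.7 CPM in the control libraries (−0.22 ± 0.05, adjusted p = 0.000414). The partner core protein UQCRC2 was at 341.0, 322.8 and 311.1 CPM in the knockout libraries, against 363.9, 354.4 and 365.6 CPM in the control libraries (−0.15 ± 0.05, adjusted p = 0.00699). Both core proteins were thus lower without overlap. The catalytic subunits CYC1 (−0.11, adjusted p = 0.0584) and UQCRFS1 (0.07, adjusted p = 0.244) did not pass. Their groups did not overlap either, with CYC1 lower and UQCRFS1 higher in every knockout library. UQCRH, the hinge protein, was at 217.5, 214.2 and 203.9 CPM in the knockout libraries, against 212.1, 193.2 and 208.8 CPM in the control libraries, and its near-copy UQCRHL had 8 counts over all libraries.

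CYCS, the electron carrier between complexes III and IV that also triggers caspase activation when released from mitochondria, showed the largest increase among well expressed members. It was at 817.0, 684.3 and 765.9 CPM in the knockout libraries, against 515.6, 486.0 and 488.9 CPM in the control libraries. The lowest knockout library exceeded the highest control library, and the log2 fold change was 0.60 ± 0.05, or 1.52-fold (adjusted p = 9.41e-11). Of its 40 nearest tested genes on chromosome 7, 12 lay below 0, and their median was 0.32. Processed copies of CYCS are known elsewhere in the genome, so reads shared with them are uncertain.

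Complex IV had 13 tested nuclear members, of which 1 rose (7.69%), 2 fell (15.4%) and 10 did not pass, with a median of −0.01. Beside these shares stand 24.6% higher and 25.8% lower of all genes tested. COX4I1, the ubiquitous form of the subunit through which ATP regulates the enzyme, was at 132.7, 145.0 and 125.3 CPM in the knockout libraries, against 267.8, 266.5 and 264.0 CPM in the control libraries. With 134.3 ± 9.92 CPM in the knockout and 266.1 ± 1.91 CPM in the control (SD, n = 3 each), it fell by 0.98 on the log2 scale (SE 0.05, adjusted p = 2.22e-18), the largest decrease of any nuclear member. COX4I1 lies on chromosome 16 of GRCh38, from 85798633 to 85807044 on the plus strand, the chromosome that also carries SDR42E1. All 40 of its nearest tested genes had log2 fold changes below 0, with a median of −0.72, and the part of that shared shift in the result was not tested. Of the other nuclear subunits of complex IV only COX7B fell, by far less. COX5A, which with COX4I1 joins the complex early in its assembly, was at 0.05 on the log2 fold change scale (adjusted p = 0.493), and COX5B, COX6C and COX7C lay between −0.05 and 0.03 without passing the test.

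Several complex IV subunits exist as a general form and a form found mainly in muscle, lung or testis, and these cells expressed the general forms. COX4I2, COX6A2, COX7A1, COX7B2 and COX8C had 0 counts in all 6 libraries. Of 6 markers of muscle, 5 were below 1 CPM in every library, MYH7 and MYH2 at 0 among them. The sixth, the slow troponin gene TNNT1, was at 35.3 ± 3.14 CPM in the knockout and 29.4 ± 1.78 CPM in the control (SD, n = 3 each; adjusted p = 0.00905) and made up nearly all of the list's sum of 31.8 to 37.6 CPM in the knockout and 27.8 to 31.6 CPM in the control. COX6A1 was at 222.6, 218.1 and 197.5 CPM in the knockout libraries, against 227.4, 205.5 and 219.1 CPM in the control libraries. COX7A2 was at 130.0, 137.8 and 117.5 CPM in the knockout libraries, against 125.4, 111.8 and 119.6 CPM in the control libraries. COX8A was at 255.3, 248.3 and 242.3 CPM in the knockout libraries, against 270.0, 258.2 and 250.7 CPM in the control libraries. The groups overlapped for each of these 3, and their adjusted p-values were 0.666, 0.102 and 0.285. COX7A2 passed without knockout 3 (adjusted p = 0.0105), and also without control 1.

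COX7A2L, which takes part in joining complexes III and IV into supercomplexes, was at 101.9, 97.4 and 92.1 CPM in the knockout libraries, against 91.2, 88.2 and 89.9 CPM in the control libraries. Its groups did not overlap, but its adjusted p was 0.0986, and 0.0323 without knockout 3. NDUFA4, once assigned to complex I and now placed with complex IV, was at 212.4, 217.3 and 196.6 CPM in the knockout libraries, against 207.9, 205.5 and 211.4 CPM in the control libraries, a log2 fold change of 0.00 ± 0.05 (adjusted p = 0.949). Its paralogue NDUFA4L2, known as a hypoxia-induced gene, was too low to test, at 0.351 ± 0.178 CPM in the knockout and 0.412 ± 0.251 CPM in the control.

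The small subunit COX7B was at 189.0, 185.9 and 167.8 CPM in the knockout libraries, against 207.1, 198.6 and 203.0 CPM in the control libraries (−0.16 ± 0.05, adjusted p = 0.0065, but 0.0627 without knockout 3). COX6B1, the general form of another small subunit, was at 76.2, 80.7 and 69.8 CPM in the knockout libraries, against 81.3, 82.0 and 80.0 CPM in the control libraries, and overlapped (adjusted p = 0.177). Its testis form COX6B2 was counted 20, 26 and 17 times in the knockout libraries, against 4, 12 and 13 times in the control libraries. That gave 1.73 ± 0.244 CPM in the knockout and 0.679 ± 0.384 CPM in the control (SD, n = 3 each), a log2 fold change of 1.36 ± 0.42 (adjusted p = 0.00625). Both levels of COX6B2 were far below those of COX6B1, and its call was lost without control 1 (adjusted p = 0.0603).

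**Figure D3:**
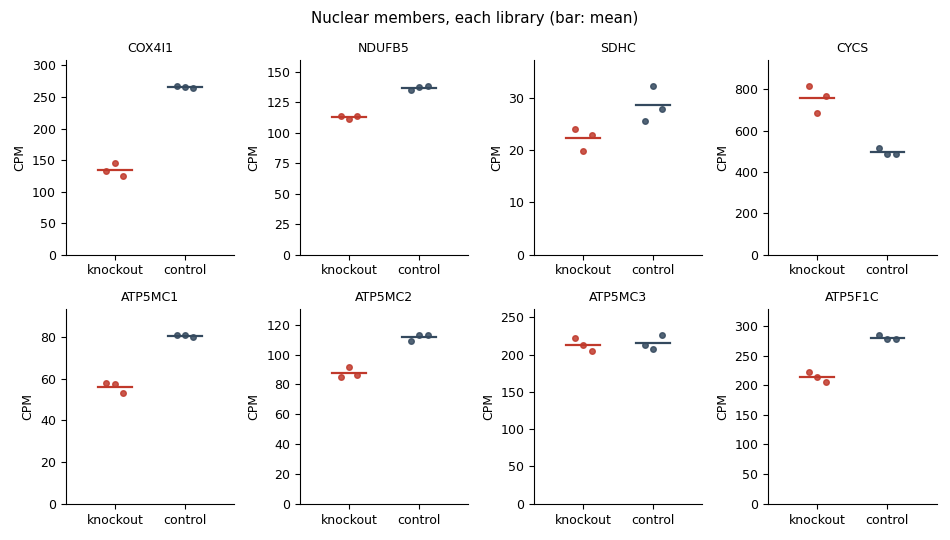
Level in CPM (y axis, linear from 0) of 8 nuclear members in 3 knockout libraries and 3 control libraries, with bars at the group means. COX4I1, NDUFB5, SDHC, ATP5MC1, ATP5MC2 and ATP5F1C are lower in every knockout library, CYCS is higher in every knockout library, and ATP5MC3 overlaps.

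In complex V, 4 of 19 nuclear members rose (21.1%), 5 fell (26.3%) and 10 did not pass, with a median of −0.02. These shares are near the 24.6% higher and 25.8% lower of all genes tested. The rotating ring of ATP synthase is built of subunit c, an identical mature protein made from 3 genes, and these differed in response. ATP5MC1 was at 57.9, 57.5 and 52.9 CPM in the knockout libraries, against 80.8, 81.1 and 80.1 CPM in the control libraries. ATP5MC2 was at 85.3, 91.6 and 86.2 CPM in the knockout libraries, against 109.1, 113.4 and 113.1 CPM in the control libraries. ATP5MC3 was at 222.0, 213.2 and 204.2 CPM in the knockout libraries, against 212.9, 207.8 and 226.7 CPM in the control libraries. The first pair were lower in every knockout library, with log2 fold changes of −0.52 ± 0.06 for ATP5MC1 (adjusted p = 8.63e-09) and −0.35 ± 0.06 for ATP5MC2 (adjusted p = 2.1e-06), while ATP5MC3 overlapped (−0.02 ± 0.05, adjusted p = 0.804); the differences between the genes were not tested. The 3 genes summed to 357.0 ± 11.9 CPM in the knockout and 408.3 ± 9.99 CPM in the control (SD, n = 3 each). The median log2 fold change of the neighbours was 0.08 for ATP5MC1 on chromosome 17 and −0.01 for ATP5MC2.

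The catalytic head of ATP synthase is a ring of alpha and beta subunits around the gamma shaft. ATP5F1C, which encodes gamma, was at 221.9, 214.5 and 205.4 CPM in the knockout libraries, against 285.1, 277.1 and 277.7 CPM in the control libraries. It was separated without overlap (−0.39 ± 0.05, adjusted p = 1.3e-08). ATP5F1A, encoding alpha, was lower by a smaller step (−0.18 ± 0.04, adjusted p = 0.00103), and ATP5F1B, encoding beta, did not pass (−0.03 ± 0.05, adjusted p = 0.614). ATP5F1E, encoding epsilon at the foot of the shaft, rose by 0.25 ± 0.05 (adjusted p = 2.84e-05), with 335.1, 339.9 and 319.4 CPM in the knockout libraries, against 281.9, 271.6 and 282.9 CPM in the control libraries. Subunits joined in the same head and shaft thus moved in opposite directions, and the inhibitor ATP5IF1 was at 80.3 ± 3.37 CPM in the knockout and 80.1 ± 0.404 CPM in the control (adjusted p = 0.973). Calls of ATP5F1D (0.24), ATP5ME (0.19), ATP5MJ (0.17) and ATP5PB (−0.13) were lost without single libraries, at adjusted p-values of up to 0.127 for ATP5F1D without control 1, 0.301 for ATP5ME and 0.247 for ATP5MJ without knockout 2, and 0.069 for ATP5PB without control 1. ATP5F1D, ATP5ME and ATP5MJ also lost theirs with DESeq2 and with upper-quartile scaling, and ATP5ME with limma-voom, and in all under 6, 7 and 4 of 14 settings.

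Some of the members that moved furthest lay among genes that moved the same way. For each nuclear member the 20 nearest tested genes on each side were taken, and their median log2 fold change lay past 0.2 in either direction for 5 members. The 3 with neighbours below −0.2, COX4I1 and SDHC among them, all fell, and those with neighbours above 0.2, CYCS and NDUFS5, both rose. Among the 78 tested members with neighbours within 0.2, 10 rose, 13 fell and 55 did not pass. Beyond their neighbours, COX4I1 differed by −0.27 on the log2 scale and CYCS by 0.28. ATP5MC1 was the furthest below its neighbours, at −0.61. This is a description, and the part of the region in any member's value was not tested.

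**Figure D4:**
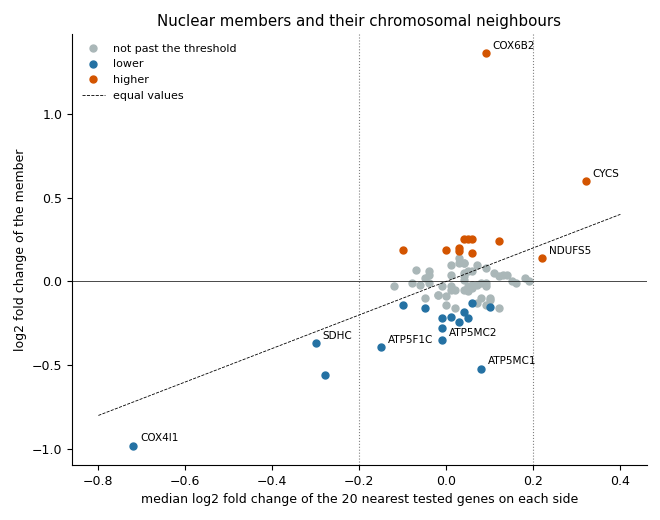
Log2 fold change of each nuclear member (y axis) against the median log2 fold change of its 20 nearest tested genes on each side (x axis), coloured by call, with dotted lines at −0.2 and 0.2 and a dashed line of equal values; the readthrough locus NDUFC2-KCTD14 is left out. COX4I1 (−0.98 with neighbours at −0.72) and CYCS (0.60 with neighbours at 0.32) lie at the ends, and ATP5MC1 lies at −0.52 with neighbours at 0.08.

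Within each complex the summed counts of mitochondrial members were set beside those of nuclear members. How reads were assigned is not known, so these ratios compare the groups and do not measure the balance of messengers in the cell. For complex I the log2 ratio of summed mitochondrial to summed nuclear CPM was −3.54 ± 0.07 in the knockout and −3.36 ± 0.06 in the control (SD, n = 3 each), and every knockout library was below every control library. For complex IV it was 0.78 ± 0.08 in the knockout and 0.87 ± 0.15 in the control, for complex III −4.90 ± 0.07 in the knockout and −4.83 ± 0.18 in the control, and for complex V −7.52 ± 0.17 in the knockout and −7.41 ± 0.33 in the control. The libraries overlapped in these 3 complexes, of which III and V rest on 1 and 2 mitochondrial genes. The mitochondrial sum of complex IV rests almost wholly on MT-CO1 and MT-CO3. They held 3172.1 of 3264.5 CPM in the knockout and 3665.6 of 3768.5 CPM in the control. The difference of knockout and control was −0.19 for complex I, −0.07 for III, −0.09 for IV and −0.11 for V on the log2 scale. Taken alone, the mean mitochondrial sums differed by −0.21 in complexes I, IV and V and by −0.11 in III. The mean nuclear sums differed by −0.03 in I, −0.04 in III, −0.11 in IV, which includes COX4I1, and −0.08 in V. Differences between the complexes were not tested.

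Genes that build and serve the chain were counted by lists, none of which was tested as a list; the shares to read them against are the 24.6% higher and 25.8% lower of all genes and the 34.1% higher and 24.0% lower of well expressed genes. Of 78 tested proteins of the mitochondrial ribosome, which translates the 13 mitochondrial messengers, 37 rose (47.4%), 10 fell (12.8%) and 31 did not pass, with a median log2 fold change of 0.14. MRPS15 (0.40, neighbours at 0.21), MRPL30 (0.35, neighbours at 0.07) and MRPS17 (0.42, neighbours at 0.14) were among those that rose, and MRPS14 (−0.57, neighbours at −0.36) among those that fell. Of 31 genes for transcription, replication and RNA processing in mitochondria 8 rose (25.8%), 7 fell (22.6%) and 16 did not pass, with a median of 0.10. TFB2M, which opens the mitochondrial promoters for the polymerase, was at 28.5 ± 1.29 CPM in the knockout and 41.0 ± 4.42 CPM in the control (SD, n = 3 each), a log2 fold change of −0.52 ± 0.09 (adjusted p = 4.07e-06), with neighbours at −0.28. PNPT1 (0.43, neighbours at 0.04) and GRSF1 (0.31, neighbours at 0.00), which handle mitochondrial RNA after transcription, and TBRG4 (0.26, neighbours at 0.22) were higher.

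Assembly factors moved in both directions. For complex I, 6 of 18 rose (33.3%) and 2 fell (11.1%), with a median of 0.12. NDUFAF4 (0.44, neighbours at 0.03), TMEM126B (0.28, neighbours at −0.00) and COA1 (0.23, neighbours at 0.17) rose, and NUBPL (−0.33, neighbours at 0.03) and ECSIT (−0.25, neighbours at −0.04) fell, ECSIT losing its call without control 2 (adjusted p = 0.0528) or knockout 3 (0.0627). For complex IV, 5 of 23 rose (21.7%) and 3 fell, with a median of 0.07. COA7, required to build complex IV, was at 79.6 ± 5.99 CPM in the knockout and 50.8 ± 1.34 CPM in the control (SD, n = 3 each), a log2 fold change of 0.65 ± 0.07 (adjusted p = 1.9e-10, neighbours at 0.01). COA4 rose as well (0.38, neighbours at −0.17). COX10 (−0.44, neighbours at −0.38) and COX15 (−0.32, neighbours at −0.21), which make the heme A of complex IV, fell, as did SCO1 (−0.24, neighbours at −0.37), which delivers copper to it. Of the 6 factors for complex III, UQCC3 (0.36, neighbours at −0.05), BCS1L (0.21, neighbours at −0.02) and LYRM7 (0.20, neighbours at 0.01) rose and TTC19 (−0.20, neighbours at −0.34) fell. The last 3 of these lost their calls without control 2 (BCS1L, adjusted p = 0.0545), most clearly without knockout 3 (LYRM7, 0.132) and most clearly without knockout 2 (TTC19, 0.0976). Of the 6 for complex V, ATPAF1 (−0.20, neighbours at 0.05) and ATPAF2 (−0.40, neighbours at −0.31) fell and none rose, and none of the 4 for complex II passed the test.

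Among 10 tested nuclear regulators of respiratory genes 5 rose, 1 fell and 4 did not pass, with a median of 0.19. MYC, a growth factor-responsive transcription factor, was at 216.6 ± 14.8 CPM in the knockout and 116.6 ± 11.3 CPM in the control (SD, n = 3 each), a log2 fold change of 0.89 ± 0.06 (adjusted p = 4.6e-11, neighbours at 0.04). ESRRA (0.37, neighbours at 0.09), the coactivator PPARGC1B (0.47, neighbours at 0.14) and GABPB1 (0.28, neighbours at 0.05) rose, and GABPB2 (−0.58, neighbours at −0.35) fell. NRF1 and GABPA, named here for the motifs above and with their values known, did not pass, at 0.03 (adjusted p = 0.839) and −0.18 (adjusted p = 0.0886).

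In the citric acid cycle 4 of 17 genes rose (23.5%) and 5 fell (29.4%), with a median of −0.12. FH, whose protein acts next after complex II, fell (−0.39, neighbours at −0.18), as did the succinyl-CoA ligase genes SUCLA2 (−0.43, neighbours at −0.09) and SUCLG1 (−0.23, neighbours at 0.08), while DLAT of pyruvate dehydrogenase (0.19, neighbours at −0.05), IDH3A (0.19, neighbours at 0.02), OGDH (0.14, neighbours at 0.24) and DLST (0.26, neighbours at 0.06) rose, OGDH losing its call without knockout 2 (adjusted p = 0.0582) or with upper-quartile scaling (0.0507). Of 20 genes for cytochrome c, acyl carrier and ubiquinone supply and use, a list that also holds CYCS, 5 rose and 8 fell, with a median of −0.08. SQOR, which passes electrons from sulfide to ubiquinone, was at 0.55 (neighbours at 0.04), with GPD2 (0.17, neighbours at −0.04), COQ3 (0.29, neighbours at 0.09) and COQ10B (0.46, neighbours at 0.08) also rising. Of the ubiquinone synthesis genes that fell, COQ9 was at −0.60 (neighbours at −0.34) and COQ8A at −0.63 (neighbours at −0.29). Of 4 carriers of adenine nucleotides and phosphate, SLC25A5 (0.15, neighbours at 0.18) and SLC25A6 (0.16, neighbours at −0.02) rose and SLC25A4 (−0.23, neighbours at 0.04) fell. SLC25A6 lost its call under 6 of 14 settings, with an adjusted p of 0.151 without control 2, and SLC25A4 under 8 of 14, with 0.207 without control 2.

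**Figure D5:**
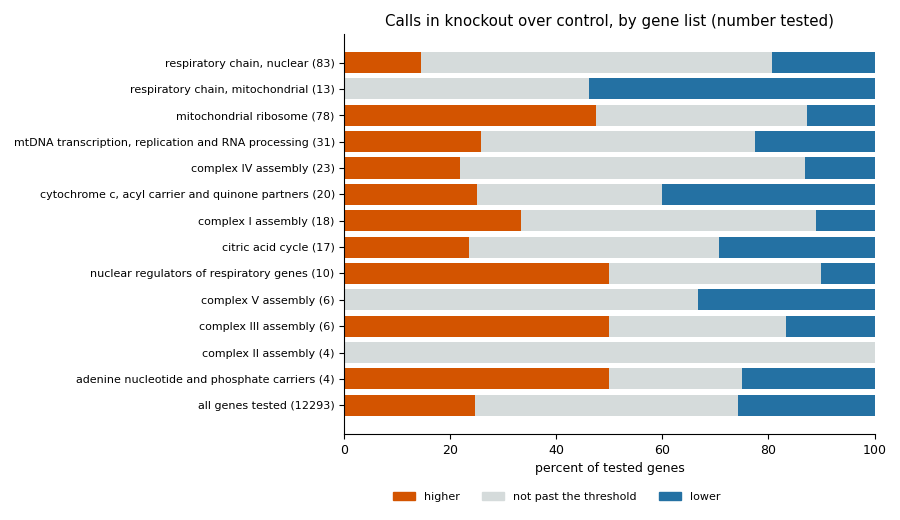
Share of tested genes (x axis, percent) that were higher, not past the threshold or lower in the knockout, for the nuclear and mitochondrial members and for each companion list, with the number tested in brackets. The mitochondrial members show 53.8% lower and none higher, the nuclear members 14.5% higher and 19.3% lower, and all genes tested 24.6% higher and 25.8% lower.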

How the data were processed

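Raw counts were used as the authors deposited them, in 1 table of genes by libraries, whose 6 columns each carry a name that fits 1 sample; 0 columns of other samples were present. Per the submitters' processing notes the build was GRCh38, and the libraries were made with a stranded total-RNA kit, per the labels' protocols. The aligner, counter and strand setting were not given in the sources used here. After filterByExpr (at least 10 counts per gene, 15 in total) and TMM scaling, knockout and control were compared with edgeR 4.0.16 in R 4.3.3 by the robust quasi-likelihood F test, two-sided, over all 6 libraries with no block. Every adjusted p is from that fit unless another setting is named, Benjamini-Hochberg adjusted over 12293 genes, with a threshold of 0.05. Errors after log2 fold changes are SEs, and CPM values use the TMM-adjusted library size.

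Within a group, pairs of libraries differed beyond sampling noise, at 2.65 to 4.49 chi-square units per degree of freedom, and each was kept as a replicate. On simulated counts over 12293 genes, with 50 genes changed at each fold size, edgeR found 50% of 1.25-fold and 84% of 1.5-fold changes. It found 86% of 2-fold and 100% of 4-fold changes, and made 12 false calls. In the data 50.4% of genes were called, a far larger share than was changed in the simulation, so these rates may not carry over. Alternatives were limma-voom 3.58.1, DESeq2 1.42.0, RLE and upper-quartile scaling, scaling without mitochondrial genes, other filters, a replicate block, and each library left out. The numbers of the replicates were not taken as pairs.

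Values per library were given for all mitochondrial members, nuclear members past the threshold with an absolute log2 fold change of at least 0.5, the 3 of each complex with the smallest adjusted p, and tissue-isoform pairs; in each companion list the 4 genes past the threshold with the smallest adjusted p were named, and those against the majority of their list where these were 5 or fewer. NDUFB10, ATP5F1E, GABPB1, NDUFAB1 and other genes given beyond that rule were chosen after their values were seen. A result of 1 member is not reported here, though counts include it. The members and lists were chosen with earlier results of these data known. Gene positions and lengths came from GENCODE release 29, and promoters from RefSeq on GRCh38.p14.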

Additional observations from a re-analysis of the deposited data

How the results depend on the processing

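The tested genes called numbered 5315 with DESeq2 and up to 6425 with the replicate block, and 5338 to 6074 with each library left out. With upper-quartile scaling 43.4% of all calls were higher in the knockout, against 48.8% in the main comparison. Nuclear members that rose numbered 8 to 12 and those that fell 15 to 21 under other tools, scalings and filters. Leaving out each library gave 7 to 15 that rose, with 7 without knockout 2, and 14 to 17 that fell. Mitochondrial members that fell numbered 3 with DESeq2, 6 with limma-voom and 8 with no filter, and 3 to 10 with each library left out; none rose under any of the 14 alternatives. With the replicate block 12 nuclear members rose and 19 fell, and 8 mitochondrial members fell. No pairing by number was seen: correlations of same-numbered deviations were 0.03, −0.08 and 0.00, and no same-numbered pair was the best match in both directions. With 3 libraries a group this check cannot settle whether the libraries were paired. The cause of the differences between settings was not tested. Medians ran from −0.05 to 0.02 for nuclear and from −0.25 to −0.16 for mitochondrial members. Of 35 called members 19 kept their call under every setting, 17 of 28 nuclear and 2 of 7 mitochondrial, and no called member changed direction under any setting. The log2 fold change of MT-ND3, which did not pass, ran from −0.18 to 0.10. Without members whose neighbours lay past 0.2, 10 nuclear members rose and 13 fell; without readthrough loci and non-subunits 11 rose and 16 fell. Small differences, as most here were, can be missed with 3 libraries a group, and genes with few counts such as MT-ATP8 and COX6B2 are the least certain.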
